A study of Homo sapiens with 6 samples.

Results

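The genes described here are 10 that encode signals for mononuclear leukocytes made by endothelium: the chemokines CCL2, CCL5, CCL20, CXCL9, CXCL10, CXCL11, CXCL12, CXCL16 and CX3CL1, and the growth factor CSF2. They were followed through every probe set to which the platform annotation gives exactly 1 gene symbol, that of a member, which yielded 19 of the 49293 non-control probe sets. The 19 probe sets cover 9 of the 10 genes. No probe set carried the symbol CSF2, so CSF2 was not analysed here. CXCL12 had 5 probe sets, CCL5 and CXCL11 had 3 each, CXCL16 and CX3CL1 had 2 each, and CCL2, CCL20, CXCL9 and CXCL10 had 1 each.

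In the study, 3 samples of HMEC-1 given EPC-Exos, at 1e+11 particles per mL for 24 hours, were set against 3 samples of HMEC-1 given the same volume of PBS for 24 hours. HMEC-1 is a single immortalised line of human dermal microvascular endothelial cells, and all 6 samples were kept in MCDB131 medium without serum. The labels leave EPC-Exos unexpanded; the study is known to have used exosomes of endothelial progenitor cells. It asked which transcripts of the recipient cells differ after exposure to the vesicles. Nothing in the labels says that replicates came from separate cultures, so the error behind each p-value may be no more than technical, and a batch that follows the treatment cannot be told apart from it.

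Chemokines are small proteins that steer leukocytes through G protein-coupled receptors. Endothelial cells secrete most of them and hold them on heparan sulfate at the vessel wall, where rolling cells meet them. CXCL16 and CX3CL1 are made as membrane-anchored proteins that both tether cells and, once shed by the proteases ADAM10 and ADAM17, attract them. Inflammatory signals acting through NF-kB and interferons acting through STAT and IRF factors are the best known inducers of the set, while CXCL12 is a more constitutive chemokine.

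Values are log2 signals of the deposited table, whose array medians over the non-control probe sets ran from 6.24 to 6.34. Levels of different probe sets are not comparable with each other, because each binds its target with its own strength. The table has no detection calls, so 17 Tag control probe sets, designed to have no human target, served as the guide to background. The highest of them reached 4.70 to 5.25 on the EPC-Exos arrays and 4.76 to 5.11 on the PBS arrays. It was the same Tag control on every array, and the next highest reached 4.29 to 4.45 with EPC-Exos and 4.17 to 4.41 with PBS. A probe set at or below the highest Tag control of each array of a group is called at background there. Antigenomic control sets, which the array sorts by the number of G and C bases in the probe, averaged 3.35 at 14 such bases, 5.54 at 19 and 6.75 at 21. The GC content of the chemokine probes was not used here, so its part in signals between about 5 and 7 was not tested.

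Among the chemokines, CCL20 rose 2.11-fold after EPC-Exos, CXCL16 fell in both of its probe sets, by up to 1.72-fold, and CXCL12 rose 1.33-fold in 1 of its 5 probe sets. CCL5 and CX3CL1 did not pass the test, with signal above the Tag controls on every array save 1 in 1 CX3CL1 probe set. CCL2 and the interferon-inducible trio CXCL9, CXCL10 and CXCL11 lay at background on all 6 arrays. With limma and a Benjamini-Hochberg adjusted p under 0.05 over all 49293 probe sets, 4 of the 19 were called (21.1%), 2 higher and 2 lower, where 28.4% of all probe sets were called, 13.6% higher and 14.8% lower. The share called was thus no higher among the chemokines than over the array. The median log2 change was 0.052 over the 19 and 0.018 over all probe sets, and the median size of change, regardless of sign, was 0.15 and 0.14. The EPC-Exos and PBS arrays did not overlap in 5 of the 19, against 39.1% of all probe sets. At background in both groups were 9 of the 19, and 0 of these 9 were called by limma, also at an unadjusted p under 0.05, while all 4 calls were among the other 10. Over all probe sets above the highest Tag control on at least 1 array, limma called 38.2%. By the study's own threshold (a fold of 1.5 or more, unadjusted p below 0.05) 2 of the 19 passed, against 6.51% of all probe sets. In such bulk samples, fewer cells that express a gene and less of its RNA per cell cannot be told apart.

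**Figure D1:**
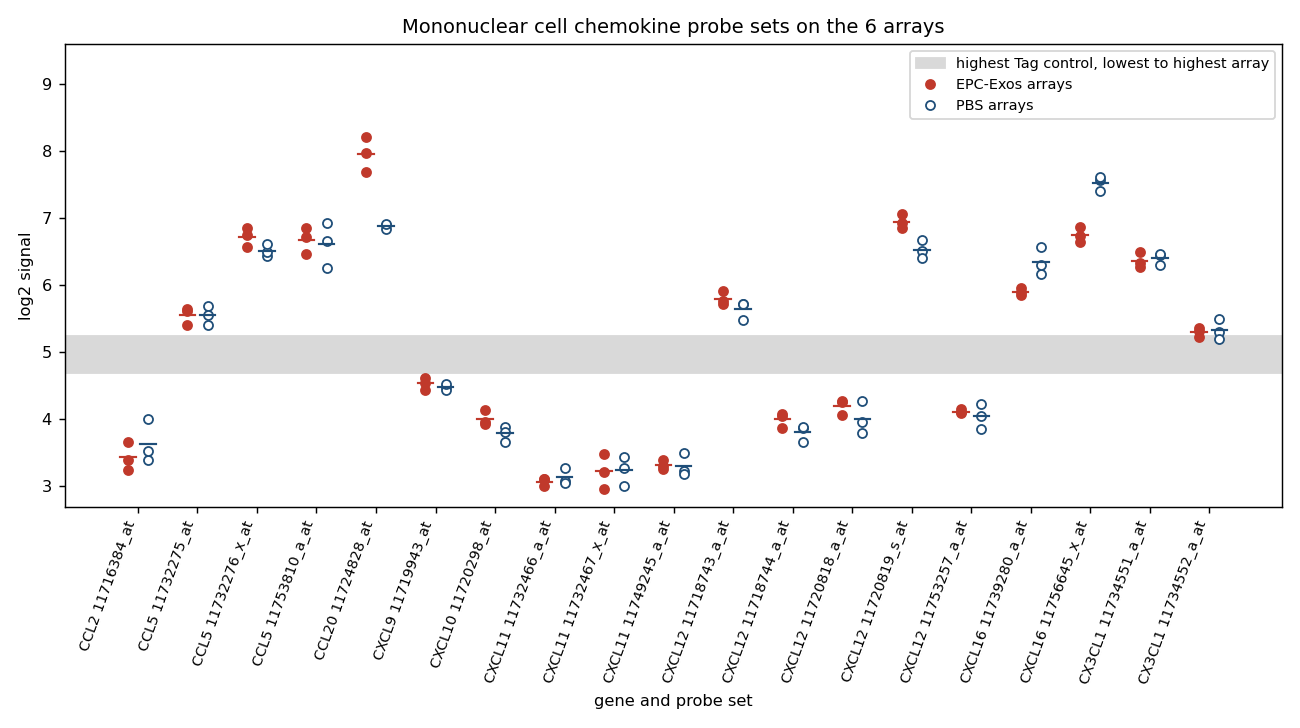
Log2 signal (vertical axis) of the 19 chemokine probe sets (horizontal axis) on the 3 EPC-Exos arrays (filled, left of each pair) and the 3 PBS arrays (open, right), with short lines at the group means; the grey band spans the highest Tag control, 4.70 to 5.25 over the arrays. CCL20 stands at 7.70 to 8.21 with EPC-Exos and at 6.83 to 6.92 with PBS, and CCL2, CXCL9, CXCL10 and CXCL11 lie under the band.

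CCL20, the ligand of the receptor CCR6, which draws dendritic cell precursors and memory and Th17 lymphocytes, had log2 signals of 7.98, 8.21 and 7.70 with EPC-Exos and of 6.89, 6.83 and 6.92 with PBS. Every EPC-Exos array was above every PBS array, and the lowest EPC-Exos array was EPC-Exos replicate 3. The means were 7.96 ± 0.26 with EPC-Exos and 6.88 ± 0.045 with PBS (SD, n = 3 each), so the EPC-Exos arrays were the more spread. The log2 change was 1.08 ± 0.11 (SE; 95% interval 0.85 to 1.31), or 2.11-fold (1.80 to 2.47), with an adjusted p of 3.80e-07 in limma. CCL20 was called in all 19 alternative fits that tested its probe set. CCL20 is also a target of NF-kB, and its upstream sequence is given with those of the CXCR3 ligands.

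CXCL16 is the membrane-anchored ligand of CXCR6, a receptor of activated T and natural killer T cells, and it also acts as a scavenger receptor for oxidised lipoprotein. Its probe set 11756645_x_at had 6.73, 6.87 and 6.65 with EPC-Exos, against 7.56, 7.62 and 7.41 with PBS. All EPC-Exos values lay below all PBS values. The log2 change was -0.78 ± 0.095 (95% interval -0.98 to -0.58), 1.72-fold lower, with an adjusted p of 3.96e-06. The other probe set, 11739280_a_at, had 5.90, 5.96 and 5.85 with EPC-Exos, against 6.16, 6.30 and 6.57 with PBS. Here too the groups did not overlap, and PBS replicate 3 was the highest array. Its log2 change was -0.44 ± 0.12 (95% interval -0.68 to -0.20), 1.36-fold lower, with an adjusted p of 0.00716. Without PBS replicate 3 this change was -0.33 and the call was lost (adjusted p = 0.0500, just above the threshold). Probe sets ending in _x_at can bind related transcripts, so the larger of the 2 falls comes from the less specific kind.

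CXCL12, which retains CXCR4-bearing progenitors and lymphocytes and is made by stroma and endothelium, was read by 5 probe sets that did not give the same result. Probe set 11720819_s_at had 7.06, 6.85 and 6.93 with EPC-Exos and 6.68, 6.51 and 6.41 with PBS. The EPC-Exos arrays were all higher, though the lowest of them exceeded the highest PBS array by less than the range within either group. The log2 change was 0.41 ± 0.10 (95% interval 0.20 to 0.63), 1.33-fold, with an adjusted p of 0.00473. Probe set 11718743_a_at, also above the Tag controls, had 5.72, 5.76 and 5.91 with EPC-Exos and 5.48, 5.72 and 5.72 with PBS, a log2 change of 0.15 ± 0.11 that did not pass (adjusted p = 0.376). The other 3 probe sets of CXCL12 were at background in both groups, at 3.87 to 4.27 with EPC-Exos and 3.67 to 4.27 with PBS, and had log2 changes of 0.070 to 0.19 with adjusted p of 0.256 to 0.738. The call of CXCL12 rests on 1 probe set, of the _s_at kind that can bind several transcripts. The average of its 5 probe sets did not pass (log2 change 0.20 ± 0.082, adjusted p = 0.0795), while that of the 2 CXCL16 probe sets did (-0.61 ± 0.074, adjusted p = 1.75e-05).

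CX3CL1, or fractalkine, the other membrane-anchored chemokine, binds CX3CR1 on patrolling monocytes and cytotoxic lymphocytes. Its probe set 11734551_a_at had 6.33, 6.50 and 6.27 with EPC-Exos and 6.30, 6.45 and 6.47 with PBS. The groups overlapped, and the log2 change was -0.044 ± 0.10 (95% interval -0.26 to 0.18; adjusted p = 0.821). Probe set 11734552_a_at lay close to the highest Tag control, above it on 2 of 3 EPC-Exos arrays and on all PBS arrays, at 5.23 to 5.37 with EPC-Exos and 5.20 to 5.50 with PBS, with a log2 change of -0.029 ± 0.12 (95% interval -0.28 to 0.22). These intervals reach a CX3CL1 signal 1.21-fold lower and, on the upper side, a log2 change of 0.22. Whether the responses of CX3CL1 and CXCL16 differ was not tested.

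CCL5, or RANTES, attracts T cells and monocytes. Its 3 probe sets were above the Tag controls on every array. Probe set 11732276_x_at had 6.75, 6.86 and 6.57 with EPC-Exos and 6.44, 6.49 and 6.62 with PBS, and 1 PBS array lay above the lowest EPC-Exos array. That probe set had a log2 change of 0.21 ± 0.10 (95% interval -0.010 to 0.43; adjusted p = 0.159). The log2 changes of 11753810_a_at and 11732275_at were 0.062 ± 0.14 and 0.0015 ± 0.12, and neither passed.

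CCL2, or MCP-1, the main monocyte chemokine and ligand of CCR2, had log2 signals of 3.25, 3.67 and 3.39 with EPC-Exos and of 3.39, 3.52 and 4.005 with PBS. All 6 values were below the highest Tag control of their array, so neither a level nor a fold can be given for CCL2. The log2 difference was -0.20 ± 0.15 (95% interval -0.51 to 0.10; adjusted p = 0.360). The reading rests on 1 probe set.

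**Figure D2:**
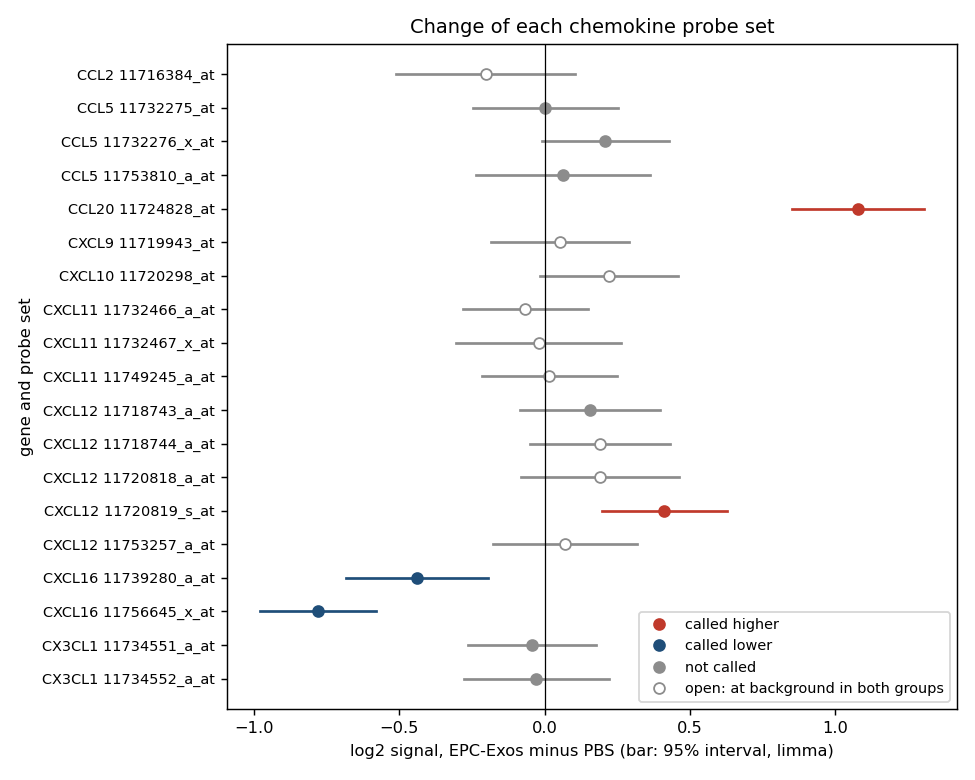
Log2 change, EPC-Exos minus PBS (horizontal axis), of each chemokine probe set (vertical axis) with its 95% interval from limma; red marks calls higher, blue calls lower, grey no call, and open points are at background in both groups. Only CCL20 (1.08), CXCL12 11720819_s_at (0.41) and both CXCL16 probe sets (-0.44 and -0.78) have intervals that exclude 0 among the 19.

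CXCL9, CXCL10 and CXCL11 share the receptor CXCR3 of effector T and natural killer cells and are neighbouring genes on chromosome 4. Across their 5 probe sets no array exceeded 4.62. CXCL10 had 3.96, 3.94 and 4.14 with EPC-Exos and 3.89, 3.81 and 3.67 with PBS. The groups of CXCL10 did not overlap, but both were at background, and the log2 difference of 0.22 ± 0.11 (95% interval -0.018 to 0.46) did not pass (adjusted p = 0.174). CXCL9 had 4.44, 4.62 and 4.55 with EPC-Exos and 4.49, 4.44 and 4.53 with PBS, and these overlapped. Each of these CXCL9 values lay below the highest Tag control of its array but above the next highest. The 3 probe sets of CXCL11 ran from 2.96 to 3.49 with EPC-Exos and from 3.01 to 3.50 with PBS, with log2 differences between -0.067 and 0.016. A signal this low gives only a bound on expression.

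Upstream sequence is shown for the gene that rose most and for the CXCR3 ligands, since the factors named above, NF-kB and the interferon-activated factors, act through motifs there. The RefSeq promoter table (GRCh38.p14) held 6 of the 10 genes. In the 250 bases before the start, both strands were searched for 5 motifs: the interferon-stimulated response element (GAAA, any 2 bases, GAAA), the STAT site TTCNNNGAA, the AP-1 site TGANTCA, the TATA box TATAAA and the NF-kB consensus. Of 35116 promoters in the table, 3.02% held the response element, 6.57% the STAT site, 6.57% the AP-1 site, 10.7% the TATA box and 5.21% the NF-kB consensus. CCL20 held 1 NF-kB match, on the opposite strand, and a TATA box. CXCL10 held 1 response element and 2 NF-kB matches, CXCL9 held 1 response element and a TATA box, and CXCL11 held 1 NF-kB match, 1 AP-1 site, 1 STAT site and a TATA box. No 2 of these matches overlapped. The letters TATAAA began 191 bases before the start in CXCL9, against 29 in CCL20 and 42 in CXCL11. CSF2 held 1 STAT site and CXCL12 held none of the 5 motifs. The windows are, for CCL20, chr2:227813712-227813841 on the plus strand, and on the minus strand chr4:76023603-76023732 for CXCL10, chr4:76036071-76036170 for CXCL11 and chr4:76007640-76007709 for CXCL9. They are written 5′ to 3′ along the gene, and capitals mark NF-kB matches and response elements. A match is a description of these letters, and binding was not measured.
CCL20: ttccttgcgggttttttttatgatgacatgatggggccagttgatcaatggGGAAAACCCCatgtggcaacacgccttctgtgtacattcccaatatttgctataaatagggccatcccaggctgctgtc
CXCL10: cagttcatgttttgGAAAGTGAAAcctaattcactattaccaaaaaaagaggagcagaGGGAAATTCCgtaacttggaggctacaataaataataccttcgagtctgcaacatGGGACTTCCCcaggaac
CXCL11: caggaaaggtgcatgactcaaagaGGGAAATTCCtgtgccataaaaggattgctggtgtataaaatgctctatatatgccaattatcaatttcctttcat
CXCL9: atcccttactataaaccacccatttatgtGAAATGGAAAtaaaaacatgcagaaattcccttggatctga

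Genes around the chemokines were followed in 10 lists, each gene through its brightest probe set on average. Of 114 genes with a probe set, 46 were called. Over all 18132 genes taken the same way, 31.2% were called, 13.8% higher and 17.4% lower, with a median log2 change of 0.015.

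Among receptors and scavengers of the chemokines, 0 of 13 rose and 1 fell (2 at an unadjusted p under 0.05, both counted with limma), with a median log2 change of 0.043. The one that fell was ACKR3, a receptor that takes up CXCL12 and removes it, at 4.38, 4.86 and 5.06 with EPC-Exos and 5.83, 5.11 and 5.50 with PBS. The groups did not overlap, and the EPC-Exos arrays were at background, so ACKR3 was at least 1.34-fold lower (adjusted p = 0.00445). CCR1, CCR2, CCR6, CXCR4, CXCR6, CX3CR1, CSF2RA, ACKR2 and ACKR4 were at background in both groups, and they are named here after their values were seen.

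Of 18 other mononuclear cell chemokines, limma called 0 (2 at an unadjusted p under 0.05), with a median log2 change of 0.070, and 9 were at background in both groups. XCL1, or lymphotactin, and CCL26, or eotaxin-3, had the smallest p, with log2 differences of 0.30 ± 0.11 and 0.26 ± 0.12 (adjusted p = 0.0544 and 0.137), and XCL1 was at background. XCL1 was called in 3 of 17 alternatives, without EPC-Exos replicate 1, with median centring and with 1 probe set a gene (adjusted p = 0.0263, 0.0473 and 0.0490). Of 6 neutrophil chemokines 5 rose, with a median log2 change of 2.52. CXCL3 averaged 8.46 ± 0.094 with EPC-Exos and 4.79 ± 0.10 with PBS, where it exceeded the Tag controls on 1 of 3 arrays, and the log2 changes of CXCL2, CXCL8 and CXCL1 were 2.62, 2.56 and 2.49. Those of CXCL1, CXCL2 and CXCL8 come from _s_at or _x_at probe sets, and CXCL1, CXCL2 and CXCL3 are close relatives whose transcripts can cross-hybridise. Among 7 other blood cell growth factors only CSF3, the granulocyte factor G-CSF, was called, at 7.18 ± 0.043 with EPC-Exos and 6.27 ± 0.17 with PBS (log2 change 0.91 ± 0.10, adjusted p = 1.59e-06).

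Of 7 proteases that cut chemokines, 3 rose and 3 fell, with a median log2 change of -0.063. DPP4, the peptidase that trims the N terminus of CXCL12, CXCL10 and CCL5, averaged 4.92 ± 0.088 with EPC-Exos, where it exceeded the Tag controls on 1 of 3 arrays, and 7.91 ± 0.15 with PBS, a log2 change of -2.99 ± 0.11 (adjusted p = 3.56e-13). Since the signal of DPP4 with EPC-Exos was near background, the size of this change is uncertain, and it was -1.69 with a linear offset of 64. The collagenase gene MMP1 (1.52 ± 0.066) and the membrane protease gene MMP14 (0.42 ± 0.069) rose, and the gelatinase gene MMP2 fell (-0.77 ± 0.074). The sheddases of CXCL16 and CX3CL1, named after their values were seen, had log2 changes of -0.22 ± 0.062 in ADAM17, which fell (adjusted p = 0.0129), and of -0.063 ± 0.092 in ADAM10, which did not pass. Shedding itself was not measured.

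Heparan sulfate genes fell in 7 of 14 and rose in 1, and their median log2 change was -0.22. Leading the list by size were the core protein genes GPC1, glypican-1 (-0.95 ± 0.071), HSPG2, perlecan (-0.94 ± 0.094), and SDC2, syndecan-2 (-0.81 ± 0.081), and SULF2 (-0.67 ± 0.081), whose product removes sulfate groups from the chains.

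NF-kB factors and feedback genes rose in 8 of 16 and fell in 1, with a median log2 change of 0.23. TNFAIP3, or A20, which shuts the pathway off, averaged 9.76 ± 0.15 with EPC-Exos and 7.17 ± 0.076 with PBS (log2 change 2.59 ± 0.081, adjusted p = 5.42e-14). NFKBIZ (1.04 ± 0.068), the inhibitor gene NFKBIA (0.97 ± 0.060) and the co-regulator gene BCL3 (0.65 ± 0.12) rose too. Interferon receptors, JAKs, STATs and IRFs rose in 3 of 12 and fell in 2, with a median log2 change of -0.12. IRF9, the DNA-binding part of the type I interferon complex, rose (1.202 ± 0.066), as did SOCS3, a brake on cytokine receptors (1.07 ± 0.088), and IRF7 (0.90 ± 0.092), whereas IRF1, an activator of the CXCR3 ligand genes, fell (-0.56 ± 0.083).

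Of 12 other genes that interferon gamma induces, 5 rose and 1 fell, with a median log2 change of 0.083. The GTPase gene GBP1 averaged 8.62 ± 0.027 with EPC-Exos and 7.96 ± 0.11 with PBS (log2 change 0.66 ± 0.076). CD274, or PD-L1, rose (0.46 ± 0.12), and GBP5 was called higher (0.66 ± 0.12) although both of its groups were at background. GBP2 fell (-0.49 ± 0.12), to background with EPC-Exos, and was at least 1.03-fold lower. IDO1, GBP4 and HLA-DRA, named after their values were seen, were at background in both groups like the CXCR3 ligands. Of 9 factors that control the decay of cytokine mRNA, 4 rose and 1 fell, with a median log2 change of 0.060. ZFP36L2, a destabilising protein, fell (-0.57 ± 0.059), and ZC3H12A, or regnase-1 (0.40 ± 0.12), ZFP36L1 (0.22 ± 0.044) and HNRNPD, or AUF1 (0.18 ± 0.045), rose. Those rises were small: ZC3H12A was not called without EPC-Exos replicate 2 or PBS replicate 3 (adjusted p = 0.114 and 0.0705), and ZFP36L1 and HNRNPD were not called when the variance trend was left out (adjusted p = 0.0654 and 0.126).

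**Figure D3:**
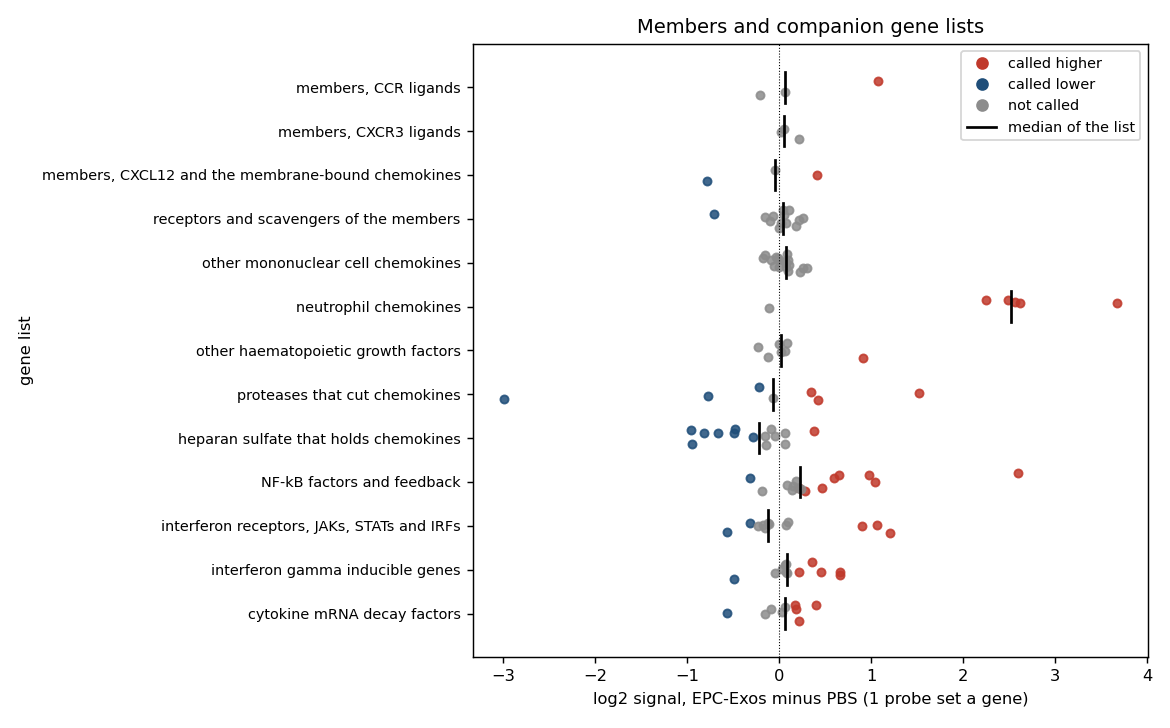
Log2 change, EPC-Exos minus PBS (horizontal axis), of each gene in the chemokine groups and in the 10 companion lists (vertical axis), 1 probe set a gene; red marks calls higher, blue calls lower, grey no call, and black bars list medians. The neutrophil chemokines have a median of 2.52, and the 18 other mononuclear cell chemokines a median of 0.070 with 0 calls.

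**Figure D4:**
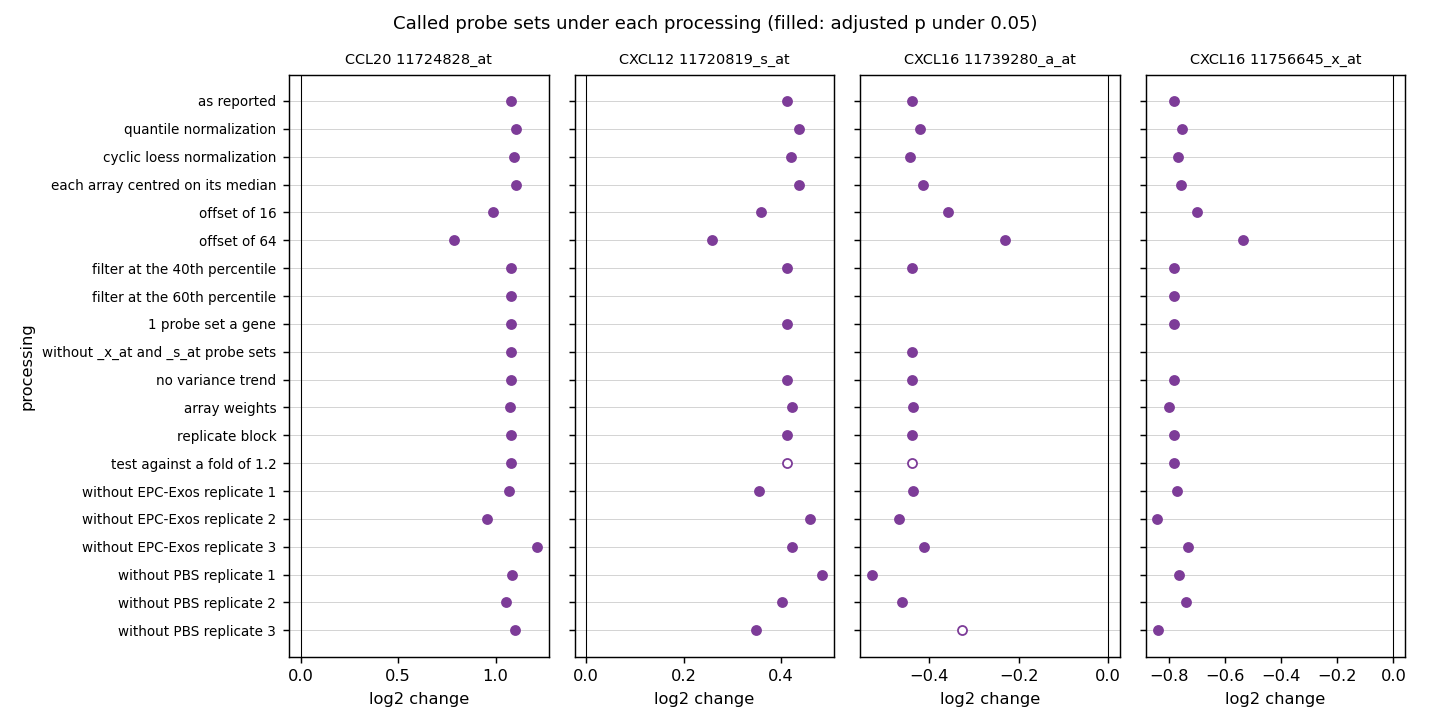
Log2 change, EPC-Exos minus PBS (horizontal axes), of the 4 called chemokine probe sets (panels) under each way of processing (vertical axis); filled points have an adjusted p under 0.05, open points do not, and no point is drawn where a setting left the probe set out. CCL20 stays between 0.79 and 1.21, and CXCL16 11739280_a_at loses its call without PBS replicate 3 and against a fold of 1.2.

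Genes with a pattern like that of each called chemokine probe set were sought with the 6 array values as deviations from the PBS mean. These deviations were compared over 32271 named probe sets above the highest Tag control on at least 1 array. The nearest to CCL20 were SLC7A2, a cationic amino acid transporter gene, and CSF3, at Euclidean distances of 0.24 and 0.25 log2 units and with log2 changes of 1.00 and 1.14. The CSF3 value comes from probe set 11729514_a_at, and not from the one given above. CXCL12 11720819_s_at lay nearest to the splicing kinase gene SRPK1 (distance 0.055) and to NMD3, a ribosome export factor gene (0.092). CXCL16 11756645_x_at lay nearest to the transporter gene SLC41A3 and to NNT, the mitochondrial transhydrogenase gene (distance 0.10 each). CXCL16 11739280_a_at lay nearest to the thyroid hormone receptor gene THRB (distance 0.088) and to ICA1 (0.090). The nearest genes of the 2 CXCL16 probe sets differed, but so did their log2 changes (-0.44 for 11739280_a_at and -0.78 for 11756645_x_at). The distance depends on the size of change, so it cannot show whether their patterns differ otherwise.

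As a check of the cells, 10 of 12 endothelial markers were above the Tag controls on at least 1 array, among them ROBO4 at 10.09 ± 0.033 with EPC-Exos and 9.98 ± 0.10 with PBS. VWF averaged 6.13 ± 0.037 with EPC-Exos and 6.03 ± 0.048 with PBS. CLDN5 and TEK were at background in both groups, CDH5 was at background with EPC-Exos and exceeded it on 1 of 3 PBS arrays, and PECAM1 was close to it. ENG, TIE1 and ESAM rose (log2 changes 0.81, 0.48 and 0.30), but ESAM was not called without EPC-Exos replicate 1, EPC-Exos replicate 3 or PBS replicate 1 (adjusted p = 0.0882, 0.179 and 0.165). Of 12 leukocyte markers CD68 rose (8.47 ± 0.055 with EPC-Exos, 7.73 ± 0.060 with PBS) and 0 fell. The summed linear signal of the 12 was 792 to 878 with EPC-Exos and 634 to 700.4 with PBS, and CD68 gave its largest term. CD68, CD3E, CD79A, NKG7, CSF1R and TYROBP were above the Tag controls on every array. The other 6, among them the pan-leukocyte gene PTPRC and the monocyte gene CD14, were at background in both groups. Of 7 fibroblast and mural markers 5 fell and 0 rose, with a summed linear signal of 1519 to 1707 with EPC-Exos and 2713 to 3074 with PBS. DCN (decorin) averaged 5.40 ± 0.088 with EPC-Exos and 7.61 ± 0.089 with PBS, and LUM (lumican) fell to background. Their part in the changes of CXCL12 and CXCL16 was not tested. Platelet and epithelial markers had 0 calls in 5 genes each, and 0 at an unadjusted p under 0.05. In each of these lists, 4 of the 5 genes exceeded the highest Tag control on at least 1 array. Whether signals at such levels mean expression was not tested.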

How the data were processed

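The authors' deposited values are log2 signals, 1 per probe set and array, from Affymetrix 3′ IVT expression arrays hybridised with biotin-labelled cRNA, per the labels' protocols. MAS5 is named without a role in the submitters' processing notes. How background was corrected and arrays were scaled is not given in the sources used here. The log2 scale was read from the range of the values, and the deposited scaling was kept.

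Of 49395 probe sets, 102 are controls, and 44988 others have 1 gene symbol in the platform annotation, 1832 several and 2473 none. All 49293 non-control probe sets, with no filter on signal, were fitted in limma 3.58.1 (R 4.3.3; lmFit, eBayes with a variance trend), group as the only term, EPC-Exos minus PBS, two-sided. Calls needed an adjusted p (Benjamini-Hochberg) under 0.05. Errors of changes are moderated standard errors. The filter of an earlier treatment of these data was left out because it removes chemokines near background. The number of arrays, 3 a group, limits the precision. Arrays of one group correlated at 0.997, and no 2 arrays shared over 24 identical values.

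The members and lists were chosen with earlier results of these data known. Named genes follow a rule: all members, in each list the 4 called genes that changed most, or, with no call, the 2 lowest p-values, and the 2 nearest in pattern to each called member. Exceptions are marked. The same-numbered arrays' deviations from their group means correlated at 0.11, 0.093 and 0.044, and those of arrays with other numbers at -0.11 to 0.016. The replicate numbers were not taken to pair the samples, although the same-numbered correlations were all the higher. A fit with the number as a block is given below. In data simulated for this comparison over 49293 probe sets, 35.8% of 67 probe sets changed 1.2-fold, 94% of 67 changed 1.5-fold and 100% of 66 changed 2-fold were called, with 9 false calls. The simulated spread was smoothed over signal and only those probe sets were changed, whereas 28.4% were called in the measured data. These rates may therefore not hold for the measured arrays.

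A group at background has only a bound: "at least" folds set the brighter mean against the mean of the highest Tag control on the dimmer arrays. These folds compare means and carry no error. Alternatives covered scaling, linear offsets, filters, the choice of probe set, the variance model, a replicate block, each array left out, the threshold and the background level. Figures used matplotlib 3.10.9.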

Additional observations from a re-analysis of the deposited data

How the results depend on the processing

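CCL20 and CXCL16 11756645_x_at kept their direction and call in every alternative that tested them, with log2 changes of 0.79 to 1.21 (19 fits) and of -0.84 to -0.54 (18 fits). CXCL12 11720819_s_at was called in 16 of 17 (0.26 to 0.48; adjusted p = 0.573 against a fold of 1.2) and CXCL16 11739280_a_at in 15 of 17 (-0.53 to -0.23; adjusted p = 0.522 against a fold of 1.2). The lowest sizes came with a linear offset of 64, which compresses changes near background by its construction. It also took the changes near background of CXCL3, DCN, LUM, GBP5 and GBP2 to 2.18, -1.29, -0.72, 0.12 and -0.15. Counts of chemokine probe sets called higher and lower, 2 and 2, became 1 and 1 with a filter at the 60th percentile, without _x_at and _s_at probe sets, against a fold of 1.2, with probe sets averaged by gene, and at the study's threshold of a fold of 1.5 with an unadjusted p under 0.05. With 1 probe set a gene 1 was lower, and leaving out single arrays gave 1 to 2 lower. The calls over all probe sets, 13986, became 5865 with 1 probe set a gene, 8950 without _x_at and _s_at, 4129 against a fold of 1.2, 5485 with gene means and 3211 at the study's threshold. The 46 companion genes became 27 without _x_at and _s_at, 25 against a fold of 1.2 and 24 at the study's threshold. Among named companions and markers, ACKR3, MMP14, GBP2, CD274, ZC3H12A, ZFP36L1, HNRNPD, TIE1 and ESAM were not called against a fold of 1.2. Fewer features were tested in the first of these and the threshold was stricter in the other 2. With the replicate number as a block, the 4 chemokine calls stayed 2 higher and 2 lower, and 15234 probe sets were called in all. The count of 9 chemokine probe sets at background became 3 with the median of the Tag controls and 8 with their 95th percentile. The 3 were those of CXCL11, and the probe set that left the count at the 95th percentile was that of CXCL9.

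Changes that did not pass turned sign in places. CCL5 11732275_at was -0.015 with cyclic loess and -0.025 with array weights, CXCL11 11749245_a_at was -0.0062 with quantile normalization and -0.012 with cyclic loess, and CXCL11 11732467_x_at was 0.0032 with median centring. With single arrays left out the ranges were -0.071 to 0.074 for CCL5 11732275_at, -0.12 to 0.22 for CCL5 11753810_a_at, -0.11 to 0.00049 for CXCL11 11732466_a_at, -0.15 to 0.11 for CXCL11 11732467_x_at, -0.044 to 0.11 for CXCL11 11749245_a_at, -0.026 to 0.16 for CXCL12 11753257_a_at, -0.11 to 0.0043 for CX3CL1 11734551_a_at and -0.097 to 0.057 for CX3CL1 11734552_a_at. They were -0.060 to 0.23 for CDH1, -0.0034 to 0.27 for GP9 and -0.018 to 0.22 for KRT14. The cause was not tested. Against the highest Tag control, CCL2 and the CXCR3 ligands were read only at background, so their values bound expression and give no level. For CXCL9 this rests on that 1 control, since CXCL9 exceeded the next-highest Tag control on every array.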
